A study of Mus musculus with 32 samples.

Results

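Genes of chemokines and their receptors were read in 4 organs, the testis, spleen, liver and lung, of 7 week old NIH Swiss males given CBL0137, a DNA-binding compound that acts on the histone chaperone FACT. Members were taken by name alone: every array probe annotated to a Ccl, Cxcl, Ccr or Cxcr gene with a number, or to Cx3cl1, Cx3cr1, Xcl1, Xcr1 or Ccrl2, with Pf4 and Ppbp left out. This gave 72 of the 23978 named probes and 57 of 16593 genes, 38 ligands and 19 receptors, and each gene was read from its brightest probe. The mice received 1 intravenous dose of 30, 60 or 90 mg/kg, or a vehicle of 5% dextrose, and organs were taken 24 hours later. With 4 organs and 4 treatments there were 16 groups, each with 2 arrays of whole-organ RNA, 32 in all. All groups shared the strain, sex and age, and no untreated mice and no other time were analysed here. Whether paired arrays represent different animals is not stated, and the p-values reflect array-to-array spread only.

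Chemokines are small secreted proteins that guide white blood cells through G protein-coupled receptors. Inflammatory chemokines are made on demand, many of them by macrophages and endothelial cells after interferon or bacterial products, whereas homeostatic chemokines hold B and T cells in the compartments of the spleen and lymph nodes at rest. Cxcl9 and Cxcl10 bind Cxcr3 on activated T and natural killer cells. Ccl2, Ccl7 and Ccl12 draw monocytes through Ccr2, and Ccl8 is their close relative. Cxcl13 acts on Cxcr5 of B cells, and Ccl19 and Ccl21 act on Ccr7.

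The upstream sequences of Cxcl10, Cxcl9 and Ccl12 are shown because these inducible ligands were among the 4 members whose spleen signal rose with dose. Each is the 250 bases before the gene's start in RefSeq (GRCm38.p6), written 5′ to 3′ on the gene's strand: chr5:92348890-92349139 on the minus strand for Cxcl10, chr5:92328080-92328329 on the minus strand for Cxcl9 and chr11:82101595-82101844 on the plus strand for Ccl12. Capitals mark matches to the interferon-stimulated response element, searched as GAAA, any 2 bases, GAAA, or to the kappaB consensus, each searched on both strands, and a pair of overlapping kappaB matches forms 1 run.
Cxcl10: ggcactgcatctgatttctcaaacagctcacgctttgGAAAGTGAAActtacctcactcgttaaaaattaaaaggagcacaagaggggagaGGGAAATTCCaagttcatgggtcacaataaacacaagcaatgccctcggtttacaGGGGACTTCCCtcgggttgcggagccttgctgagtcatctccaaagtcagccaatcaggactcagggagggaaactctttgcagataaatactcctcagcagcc
Cxcl9: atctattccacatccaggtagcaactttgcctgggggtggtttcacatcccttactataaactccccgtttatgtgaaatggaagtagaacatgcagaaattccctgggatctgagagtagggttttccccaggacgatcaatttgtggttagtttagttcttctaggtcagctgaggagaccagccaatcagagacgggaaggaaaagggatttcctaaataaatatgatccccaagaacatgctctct
Ccl12: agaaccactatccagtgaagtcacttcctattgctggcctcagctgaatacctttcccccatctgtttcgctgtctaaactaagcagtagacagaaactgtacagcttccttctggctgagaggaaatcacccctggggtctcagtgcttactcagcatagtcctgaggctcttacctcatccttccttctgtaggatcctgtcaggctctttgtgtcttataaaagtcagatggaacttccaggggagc

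Upstream of Cxcl10 lay 1 match to the interferon-stimulated response element, beginning 213 bases before the start, and 3 to kappaB, beginning 159, 104 and 103 bases before it. The windows of Cxcl9 and Ccl12 held neither motif, nor TTCNNNGAA, the gamma-activated site. Promoter windows were found for 42 of the 57 members, 48 windows in all. The response element was present in 3 of the 48 windows (those of Ccl19, Cxcl10 and Cxcl14) against 2.98% of all 32851 windows. The kappaB consensus was present in 11 of the 48 against 7.25% of all windows, and TTCNNNGAA in 4 of the 48 against 7.02%. A match describes the letters of this window and shows neither a binding site nor its absence elsewhere.

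Signals are the authors' background-subtracted, quantile-normalized intensities, and a probe was taken as detected above 7.82 to 7.91 units, depending on the array. Log2 values are of signal + 16, which understates changes of dim probes, and errors are SE from limma. Within groups, the paired arrays had r = 0.974 to 0.991 across probes, and the number of arrays limits the precision. Hepatocyte markers summed to at least 61919.0 in liver, lung epithelial markers to at least 83081.4 in lung, spermatid markers to at least 114692 in testis and B cell markers to at least 14440.9 in spleen, each the highest of the 4 organs, so the organ labels and the markers went together. A signature of testis RNA amounted to 2.73% and 5.63% of the testis level in the vehicle spleens and to 0.0182% to 1.15% in the treated spleens. It was 0.956% and 0.667% in the vehicle lungs and -0.0311% to 0.160% in the treated lungs. Array 2 of the lung at 60 mg/kg stood apart in macrophage markers, with a summed signal of 4170.5 against 908.9 to 1625.1 on the other 7 lung arrays.

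Of the 57 members, 11 were not detected on any array. They were the ligands Ccl1, Ccl26, Cxcl3, Cxcl5 and Cxcl11 and the receptors Ccr1, Ccr1l1, Ccr2, Ccr8, Ccr9 and Ccr10, so Ccr2 had no measured level beside its ligands. The 6 genes detected on all 32 arrays were all ligands: Ccl5, Ccl21a, Ccl25, Ccl27a, Cxcl12 and Cxcl16. Testing in an organ required detection on at least 2 of its 8 arrays, which left 38 members in spleen, 27 in liver, 35 in lung and 22 in testis. Both vehicle arrays detected 29 members in spleen, 29 in lung, 16 in liver and 15 in testis. Receptors were 9 of those 29 in spleen, 7 in lung, 4 in testis and 1 in liver, where Ccrl2 gave 24.8 and 17.6 units.

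**Figure D1:**
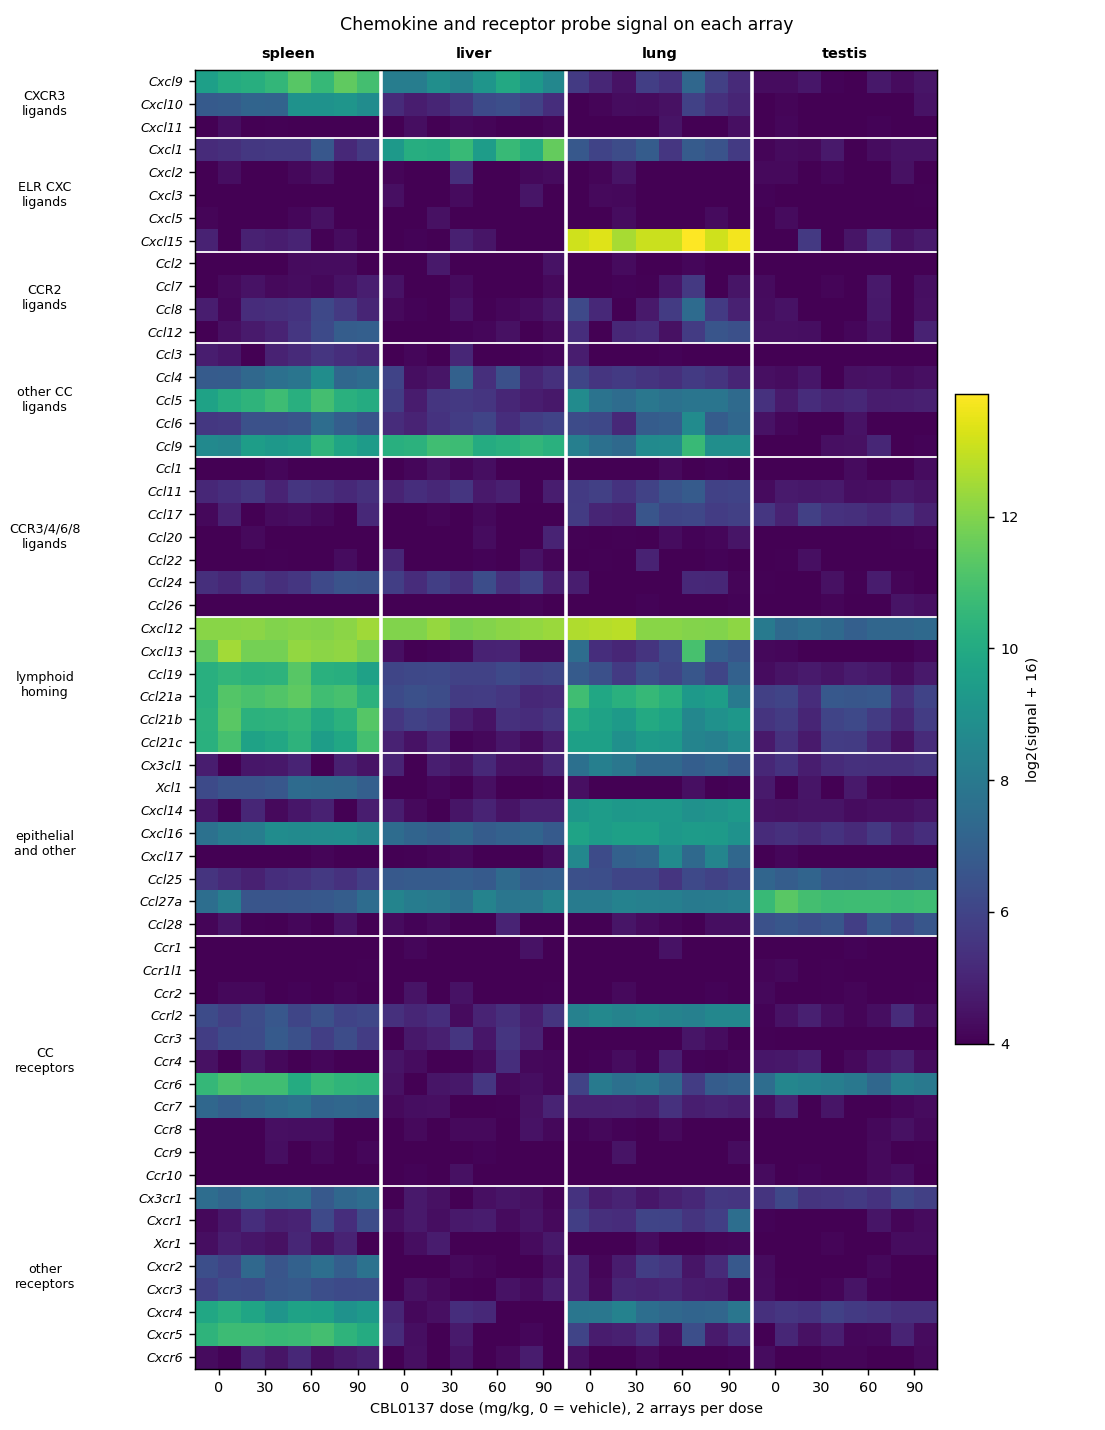
Signal of the 57 chemokine and receptor genes (rows, grouped by role) on each of the 32 arrays (columns, by organ and dose in mg/kg), coloured by log2(signal + 16). Lymphoid-homing ligands are bright in spleen and several of them also in lung, Cxcl15 is bright in lung alone and Ccl27a is brightest in testis.

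Without drug, each organ had its own chemokine profile. The 8 vehicle arrays were fitted together and each organ was set against the mean of the other 3. The 38 members detected on at least 2 of these arrays were tested. A gene detected in a single organ entered through that organ, so the filter favoured its call as higher there. In spleen 28 members differed, against 54.3% of all 12429 genes tested, and 21 were higher, against 26.1%. In lung 25 differed, against 58.4%, and 17 were higher, against 28.1%. In liver 27 differed, against 67.4%, and 6 were higher, against 28.2%. In testis 29 differed, against 72.5%, and 3 were higher, against 30.5%. Shares of this size among all genes mean that differing between organs was the usual case, for members as for other genes. Where the other organs lay near background, the size of a log2 difference depends on the added 16.

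By log2 difference the spleen's leading members were Cxcl13, Cxcr5, Ccl19 and Ccr6. Cxcl13, the ligand that forms B cell follicles, gave 2825.1 and 5766.7 units in vehicle spleen, 169.5 and 23.0 in lung, and 4.9 or less in liver and testis (log2 difference 7.06 ± 0.52, limma adjusted p = 1.78e-05). Its receptor Cxcr5 gave 1346.1 and 1695.9 in spleen and at most 49.4 elsewhere (5.67 ± 0.41). Ccl19, a ligand of Ccr7, gave 1160.4 and 1423.9 in spleen and 3.9 to 96.3 elsewhere (4.65 ± 0.17). For these genes both vehicle spleen arrays lay far above every vehicle array of the other organs. Ccr6, the receptor of Ccl20, gave 1480.1 and 2049.3 in spleen, 167.6 and 351.2 in testis, 44.9 and 247.0 in lung and 5.5 and 0.3 in liver (4.37 ± 0.51), so testis and lung overlapped below it. Ccl20 itself was above background on 1 of the 32 arrays. Ccl21a, like Ccl19 a ligand of Ccr7, gave 1168.5 and 2357.2 in vehicle spleen and 1799.7 and 930.0 in lung, which overlapped. Its near-copies Ccl21b and Ccl21c were higher in spleen than in lung, and all the Ccl21 genes were called higher in lung as well.

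Lung was set apart by epithelial ligands. Cxcl15, or lungkine, a mouse neutrophil chemokine of the airway epithelium, gave 9017.5 and 10544.8 units in lung and at most 14.8 in the other vehicle organs (9.08 ± 0.24, adjusted p = 1.58e-07). Cxcl14, made by epithelia, gave 581.3 and 687.6 in lung and at most 11.9 elsewhere (4.92 ± 0.22). Cxcl17, a mucosal chemokine, gave 371.4 and 60.8 in lung and no more than 1.9 elsewhere (3.39 ± 0.49), with a wide gap between the 2 lung arrays. In vehicle Cxcl17 was detected in lung alone, and Cxcl15 outside lung on 1 spleen array. Both entered the test only through lung, so their calls add no support to these values. Ccrl2, a heptahelical receptor that binds chemerin, gave 302.7 and 376.6 in lung against 60.7 or less elsewhere (3.28 ± 0.19).

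Liver led in Cxcl1, a neutrophil attractant, with 632.6 and 1115.0 units against 1.6 to 88.0 elsewhere (4.47 ± 0.26, adjusted p = 2.27e-06). Ccl9, a ligand of Ccr1, gave 1168.5 and 1281.8 in liver, 391.5 and 352.5 in spleen, 286.1 and 181.6 in lung and values below 0 in testis (3.43 ± 0.18). Cxcl9 at 271.4 and 275.6 and Cxcl12, the stromal ligand of Cxcr4, at 4051.8 and 4078.2 passed the test for liver against the mean of the rest, yet both were higher elsewhere: Cxcl9 in spleen at 746.3 and 1067.1, and Cxcl12 in lung at 6588.2 and 6940.1 and in spleen at 4324.5 and 4385.1. Testis had few members and led in 3. Ccl27a, known in skin as a ligand of Ccr10, gave 1581.6 and 2566.4 there and 174.6 to 336.5 elsewhere (2.90 ± 0.24, adjusted p = 8.44e-06). Ccl28, a mucosal ligand of the same receptor, gave 71.6 and 82.9 in testis and at most 7.0 elsewhere (2.37 ± 0.16). In vehicle Ccl28 was detected in testis alone. It entered the test only through that organ, so its call adds no support to these values. Ccl25, the thymus and gut ligand of Ccr9, gave 133.9 and 105.3 in testis, 90.5 and 97.5 in liver, 68.9 and 66.4 in lung and 28.3 and 20.2 in spleen, an order in which no organs overlapped.

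In the spleen a few ligands were called after CBL0137, most of them higher, and no receptor was called. On simulated spleen data 18 of 100 changes of log2 1 were recovered, so a missing call does not show an unchanged gene. At 90 mg/kg, 3 of the 38 tested members passed (adjusted p under 0.05), Cxcl10, Ccl12 and Ccl24, all higher, against 4.27% of all 11101 genes. At 60 mg/kg 3 passed, Cxcl10, Ccl12 and Xcl1, all higher, against 1.9% of genes. At 30 mg/kg 1 passed, Ccl27a, lower, against 3.13%. The linear trend over dose was called for 4, Cxcl10, Ccl12, Ccl24 and Cxcl9, all rising, against 5.11%. Among 38 members, all these counts lie within a few genes of the shares over all genes. The counts rested on few arrays: at 60 mg/kg 0 passed without array 1 of that dose, and 1 passed without its array 2, either 30 mg/kg array or vehicle array 1. At 90 mg/kg 1 passed without array 2 of that dose, and the trend was called for 1 member without vehicle array 1 and for 2 without array 1 at 90 mg/kg. At 30 mg/kg 0 passed without either array of 30 or 60 mg/kg or vehicle array 2. In whole-organ RNA, fewer cells of a type and less RNA per cell cannot be told apart.

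Cxcl10, the interferon-inducible Cxcr3 ligand, gave 93.5 and 100.9 units in vehicle spleen, 127.7 and 125.2 at 30 mg/kg, 510.1 and 502.8 at 60 and 543.2 and 432.5 at 90. The groups did not overlap from vehicle to 30 to 60 mg/kg, while 60 and 90 mg/kg overlapped. On the scale of signal + 16 the rise was 4.62-fold at 60 mg/kg (log2 2.21 ± 0.18, adjusted p = 0.0048). At 90 mg/kg it was 4.43-fold (2.15 ± 0.18, adjusted p = 0.00371). The 30 mg/kg difference of 0.33 ± 0.18 was not called (adjusted p = 0.546). Without array 1 at 60 mg/kg the call at that dose was lost (adjusted p = 0.0632).

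Ccl12, a mouse monocyte chemoattractant, went from background to a clear signal. Its probe gave -4.6 and 5.0 units in vehicle, 10.5 and 15.9 at 30 mg/kg, 31.1 and 58.9 at 60 and 103.0 and 109.9 at 90, with no overlap between any neighbouring doses. Both vehicle arrays were not well above background, so its rise is given as at least 5.42-fold at 60 mg/kg (adjusted p = 0.0331) and at least 13.5-fold at 90 (adjusted p = 0.00535). For such a fold the vehicle level was taken as the dimmest signal still above background on its arrays. No 16 was added, so it cannot be set beside the folds of other genes, and the p-values test log2 of signal + 16. It ignores the spread between arrays and is no statistical lower limit. A second Ccl12 probe gave 1.3 and -5.0 in vehicle and 49.9 and 55.7 at 90 mg/kg. The slope was 0.92 ± 0.08 log2 units per 30 mg/kg (adjusted p = 0.00267). The call at 60 mg/kg did not hold when either array of 30 or 60 mg/kg or vehicle array 1 was left out (adjusted p = 0.057 to 0.173) or without the detection filter (adjusted p = 0.103), and that at 90 mg/kg did not hold without array 2 at 90 mg/kg (adjusted p = 0.0503).

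Cxcl9, the other detected Cxcr3 ligand, was already bright. It gave 746.3 and 1067.1 units in vehicle, 1141.3 and 1456.1 at 30 mg/kg, 2466.4 and 1545.9 at 60 and 2804.8 and 1925.5 at 90. All 6 treated arrays lay above both vehicle arrays. The slope of 0.47 ± 0.09 per 30 mg/kg was called (adjusted p = 0.0298), whereas 1.36 ± 0.31 at 90 mg/kg was not (adjusted p = 0.0519). Cxcr3, their shared receptor, gave 43.3 and 64.8 in vehicle and 59.1 and 60.4 at 90 mg/kg, overlapping groups with a difference of 0.13 ± 0.24.

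Ccl24, or eotaxin-2, an eosinophil attractant made by macrophages, gave 24.0 and 18.4 units in vehicle, 34.1 and 24.5 at 30 mg/kg, 31.4 and 55.8 at 60 and 74.7 and 72.1 at 90. The 90 mg/kg arrays lay above all the others, and its rise on the scale of signal + 16 was 2.41-fold (1.27 ± 0.24, adjusted p = 0.0389). The call was lost without either array of vehicle, 30 or 90 mg/kg (adjusted p = 0.0593 to 0.174), and without the detection filter (adjusted p = 0.0885). Ccr3, its receptor, gave 39.2 and 57.5 in vehicle and 63.1 and 38.5 at 90 mg/kg, which overlapped. Xcl1, a ligand made by natural killer and CD8 T cells for the dendritic cell receptor Xcr1, gave 57.3 and 74.7 in vehicle, 76.2 and 86.0 at 30 mg/kg, 159.6 and 147.1 at 60 and 142.7 and 109.6 at 90. Treated arrays lay above vehicle at every dose, and 60 mg/kg passed (1.05 ± 0.20, adjusted p = 0.0489), whereas 90 mg/kg did not (0.79 ± 0.20, adjusted p = 0.0615). Leaving out any 1 array of vehicle, 30 or 60 mg/kg ended the Xcl1 call (adjusted p = 0.0711 to 0.234), as did testing without the detection filter (adjusted p = 0.103), a cyclic loess step (0.0656) and subtracting the testis share (0.0585).

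The only call downwards was Ccl27a, at 174.6 and 280.0 units in vehicle, 79.9 and 80.7 at 30 mg/kg, 82.6 and 89.0 at 60 and 105.4 and 162.7 at 90. Both vehicle arrays lay above all treated ones, and the gene fell by 1.30 ± 0.27 on the log2 scale at 30 mg/kg (adjusted p = 0.0451). Ccl27a was brightest in testis, at 1581.6 to 2566.4 units, and the vehicle spleens were those with 2.73% and 5.63% of testis signature. With that share subtracted, the difference was -0.78 and not called (adjusted p = 0.465). A second Ccl27a probe gave 22.8 and 34.4 in vehicle spleen and 12.0 and 18.7 at 30 mg/kg. The call did not hold without either array of 30 or 60 mg/kg or vehicle array 2 (adjusted p = 0.0718 to 0.287).

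**Figure D2:**
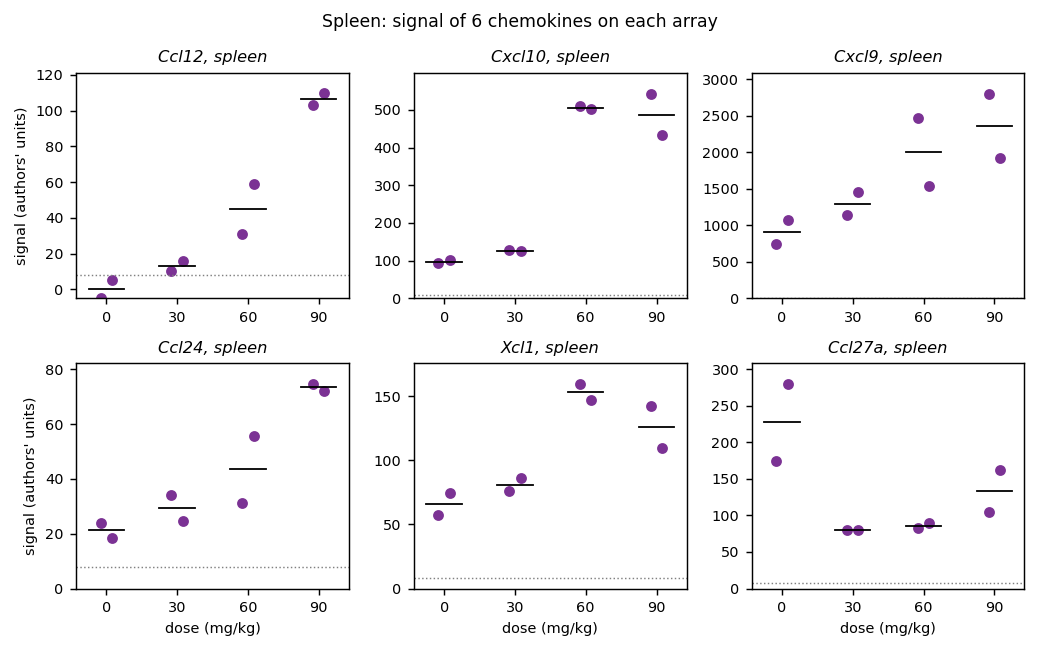
Signal in the authors' units (y axis, linear from 0 or just below) of 6 chemokines on each spleen array, by dose in mg/kg (x axis); points are arrays, bars the mean of 2, and the dotted line the background threshold. Ccl12 passes from background in vehicle to above 100 at 90 mg/kg, and Cxcl10 steps up between 30 and 60 mg/kg.

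Other spleen members moved without a call. At 30, 60 and 90 mg/kg, 17, 19 and 15 of the 38 had both treated arrays above both vehicle arrays, against 26.9%, 33.1% and 32.3% of all genes, and 3, 3 and 4 had both below, against 15.6%, 21.5% and 21.6%. The median member difference was 0.31, 0.42 and 0.12 at the 3 doses, beside 0.07, 0.09 and 0.08 over all genes tested. Ccl4, Ccl6, Ccl8 and Ccl9, inflammatory CC ligands, had an unadjusted p under 0.05 at 60 mg/kg, with log2 differences of 1.46 ± 0.31, 1.45 ± 0.30, 1.31 ± 0.32 and 1.33 ± 0.31 and adjusted p-values of 0.0527 to 0.0648. Ccl9 gave 391.5 and 352.5 units in vehicle and 681.9 and 1350.5 at 60 mg/kg. These were among 14 members with an unadjusted p under 0.05 at 60 mg/kg, against 21.3% of all genes. There were 7 such members at 30 mg/kg, against 12.7%, and 13 at 90 mg/kg, against 24.8%. By role at 90 mg/kg, 1 of 2 tested Cxcr3 ligands, 1 of 2 tested genes of the Ccl2, Ccl7, Ccl8 and Ccl12 group and 1 of 3 ligands of Ccr3, Ccr4, Ccr6 or Ccr8 were called, and 0 of 6 lymphoid-homing ligands and 0 of 12 receptors.

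Among the receptors, Cxcr1 and Cxcr2 of neutrophils and Cxcr4, the Cxcl12 receptor, had the smallest p-values in spleen. Cxcr2 gave 66.1 and 48.5 units in vehicle and 105.6 and 191.8 at 90 mg/kg (1.13 ± 0.35, adjusted p = 0.0932). Cxcr1 gave 2.3 and 8.3 in vehicle and 22.8 and 63.1 at 90 mg/kg (1.39 ± 0.45, adjusted p = 0.105). Summed neutrophil markers gave 42920.0 and 34778.1 in vehicle and 35586.6 and 42975.8 at 90 mg/kg, overlapping, a sum made up largely of very bright probes such as S100a8. S100a8 gave 16683.9 and 15071.8 in vehicle and 14783.8 and 14952.6 at 90 mg/kg, lower without overlap. A dimmer marker, Retnlg, went the other way, at 842.8 and 533.9 in vehicle and 1026.9 and 2129.5 at 90 mg/kg. It did not overlap either and was not called (1.12 ± 0.43, limma adjusted p = 0.157). The part of neutrophils in the receptor values was not tested. Cxcr4 gave 922.5 and 1163.6 in vehicle and 509.5 and 620.0 at 90 mg/kg (-0.86 ± 0.25, adjusted p = 0.0829), while its ligand Cxcl12 ranged between 4063.1 and 5643.4 on all 8 arrays. No homing gene was called: at 90 mg/kg Cxcl13 differed by 0.05 ± 0.32, Ccr7 by 0.11 ± 0.23 and Cxcr5 by -0.34 ± 0.21. Ccl21a, Ccl21b and Ccl21c are near-identical copies whose probes may share target RNA, and their spleen arrays overlapped at 90 mg/kg.

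Liver had no member called at any dose, nor for the trend, and no gene of 11586 was called at a single dose (0%), with 0.00863% called for the trend. At 30, 60 and 90 mg/kg 1, 4 and 3 of the 27 members had an unadjusted p under 0.05, against 4.9%, 7.01% and 11.1% of all genes, and the share of members at 90 mg/kg was that of all genes. Treated and vehicle arrays did not overlap for 37.2%, 37.5% and 41.4% of all liver genes at the 3 doses, so non-overlap was common. Ccl21a, in liver a lymphatic and portal ligand of Ccr7, gave 57.4 and 68.6 units in vehicle, 63.1 and 36.5 at 30 mg/kg, 37.4 and 31.7 at 60 and 18.1 and 19.8 at 90. Arrays at 60 and 90 mg/kg lay below both vehicle arrays, with a difference of -1.17 ± 0.25 at 90 mg/kg (adjusted p = 0.19), and each 30 mg/kg step came with -0.39 ± 0.07 (adjusted p = 0.0754). Cxcl9 gave 271.4 and 275.6 in vehicle, 452.8 and 320.7 at 30 mg/kg, 545.5 and 967.3 at 60 and 592.5 and 364.4 at 90. All 6 treated arrays lay above vehicle, with a largest difference of 1.36 ± 0.35 at 60 mg/kg (adjusted p = 0.522). Cxcl10 gave 21.5 and 12.0 in vehicle, 57.8 and 65.5 at 60 mg/kg and 45.1 and 22.6 at 90 (1.26 ± 0.30 at 60 mg/kg, adjusted p = 0.509). Ccl6 gave 21.8 and 15.6 in vehicle and 39.5 and 47.9 at 90 mg/kg (0.78 ± 0.28, adjusted p = 0.364), without overlap. Ccl11, or eotaxin-1, gave 16.0 and 23.6 in vehicle and 0.7 and 11.8 at 90 mg/kg (-0.72 ± 0.29, adjusted p = 0.424), close to background. Cxcl1, the organ's leading ligand in vehicle, ranged from 632.6 to 2912.8 over the 8 arrays, with the 2 arrays at 90 mg/kg at 1087.7 and 2912.8, so its replicates spread more than its groups.

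Lung had no member called either. No gene of 11372 was called at a single dose (0%), and 0.0352% were for the trend. At 30, 60 and 90 mg/kg 0, 7 and 6 of the 35 members had an unadjusted p under 0.05, against 5.9%, 8.92% and 11.5% of all genes. Treated and vehicle arrays did not overlap for 39.0%, 39.9% and 44.9% of all lung genes at these doses. Ccl12 gave 23.2 and 0.3 units in vehicle, 18.5 and 21.6 at 30 mg/kg, 5.7 and 36.7 at 60 and 81.9 and 68.1 at 90. The 90 mg/kg arrays were above the rest (1.84 ± 0.49, adjusted p = 0.193), and in 1 fit over all 32 arrays the difference passed (adjusted p = 0.0119). A second Ccl12 probe gave 15.1 and 14.5 in vehicle and 47.8 and 22.9 at 90 mg/kg, but was highest on array 2 at 60 mg/kg, at 68.9. Cxcl10 was not well above background in vehicle, at -0.7 and 1.8, and gave 24.9 and 16.7 at 90 mg/kg. This was 2.58 times the dimmest signal above background on the vehicle arrays, and the difference was not called (adjusted p = 0.37).

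Several lung ligands were lower after the drug, again without a call. At 90 mg/kg 8 of the 35 members had both treated arrays below both vehicle arrays, against 24.0% of all lung genes. Cx3cl1, or fractalkine, a membrane-bound ligand of endothelium and epithelium, gave 183.8 and 288.6 units in vehicle, 223.3 and 143.1 at 30 mg/kg, 146.2 and 106.5 at 60 and 123.1 and 93.0 at 90. Arrays at 60 and 90 mg/kg lay below both vehicle arrays (-1.003 ± 0.306 at 90 mg/kg, adjusted p = 0.267). Ccl21a gave 1799.7 and 930.0 in vehicle, 1201.5 and 1542.7 at 30 mg/kg, 1194.6 and 615.3 at 60 and 700.0 and 253.6 at 90 (-1.58 ± 0.53 at 90 mg/kg, adjusted p = 0.304). Its near-copy Ccl21c gave 768.4 and 763.3 in vehicle, 478.1 and 662.0 at 30 mg/kg, 622.0 and 335.9 at 60 and 300.8 and 418.8 at 90 (-1.07 ± 0.32, adjusted p = 0.253). For both, the 90 mg/kg arrays lay below vehicle. Summed endothelial markers gave 30095.9 and 34413.7 in vehicle and 26587.9 and 29508.1 at 90 mg/kg, and their part in these differences was not tested.

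**Figure D3:**
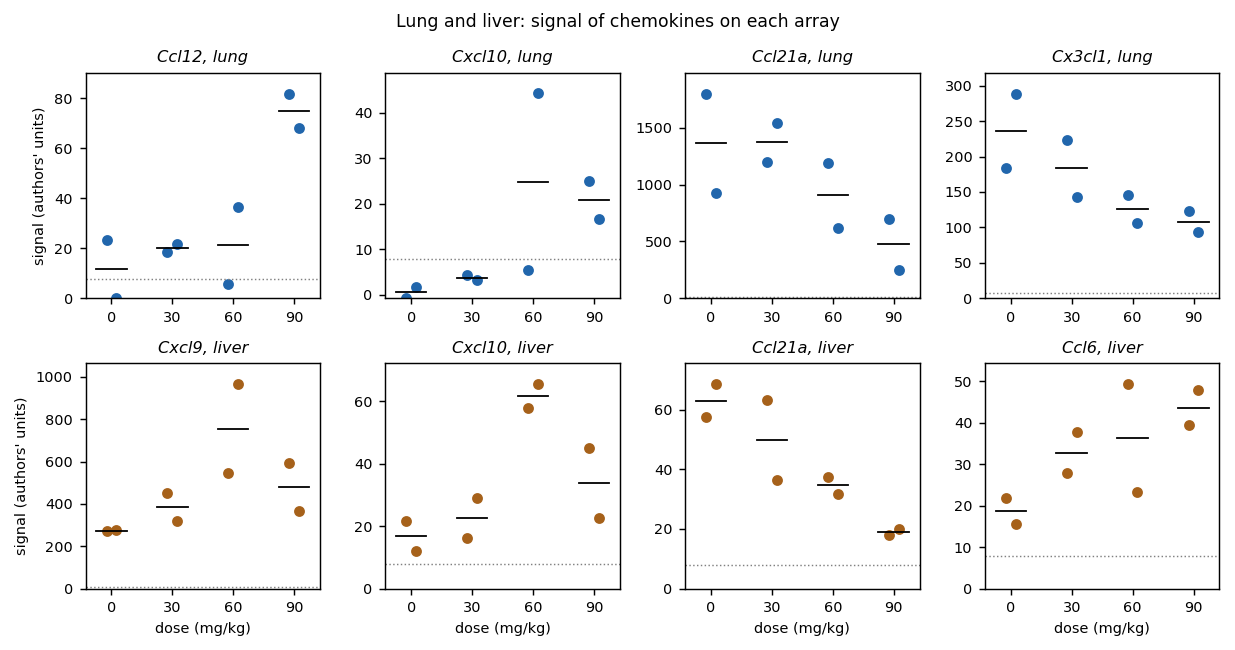
Signal in the authors' units (y axis, linear) of 4 chemokines in lung (top) and 4 in liver (bottom) on each array, by dose in mg/kg (x axis); points are arrays, bars the mean of 2 and the dotted line the background threshold. None of these differences was called, and the arrays of lung Ccl12 at 90 mg/kg, 81.9 and 68.1, lie above all other lung arrays.

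A single lung array carried several of the differences at 60 mg/kg. On array 2, Cxcl13 reached 1989.0 units against 56.8 on array 1, Ccl9 1631.4 against 413.9, and Ccl6 420.8 against 109.1. Ccl8 reached 158.6 against 36.8, and Cxcl9 141.3 against 27.9. The same array had the highest summed lung signal of macrophage markers (4170.5), of B cell markers (833.7) and of interferon-stimulated genes (8149.1, with 2481.1 on array 1), and their part in these values was not tested. No member was called at 60 mg/kg with or without it. Without it, the lung Ccl12 difference at that dose turned from 0.42 to -0.22. Leaving out vehicle array 2 instead gave -0.21.

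**Figure D4:**
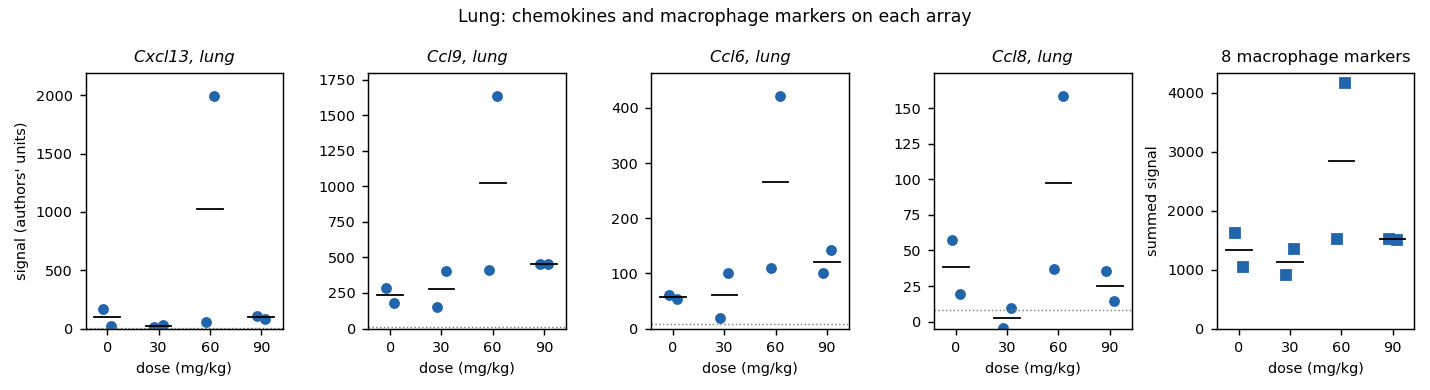
Signal in the authors' units of Cxcl13, Ccl9, Ccl6 and Ccl8 and the summed signal of 8 macrophage markers on each lung array (y axes, linear), by dose in mg/kg (x axis); points are arrays and bars the mean of 2. Array 2 at 60 mg/kg is the highest in every panel.

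Testis had no member called at any dose or for the trend (0.00924% of 10821 genes were called at 90 mg/kg and 0% otherwise). Of the 22 members tested, 0, 1 and 0 had an unadjusted p under 0.05 at 30, 60 and 90 mg/kg, against 4.5%, 9.03% and 7.56% of all genes. Treated and vehicle arrays did not overlap for 29.8%, 39.1% and 37.9% of all testis genes at these doses. Ccl25 gave 133.9 and 105.3 units in vehicle, 126.8 and 86.3 at 30 mg/kg, 83.7 and 92.0 at 60 and 79.6 and 93.2 at 90 (-0.40 ± 0.20 at 90 mg/kg, adjusted p = 0.66). Cxcl12 gave 242.4 and 150.1 in vehicle, 175.3 and 151.3 at 30 mg/kg, 109.8 and 136.5 at 60 and 134.7 and 150.6 at 90 (-0.39 ± 0.22 at 90 mg/kg, adjusted p = 0.676). Doses of 60 and 90 mg/kg lay below vehicle for Ccl25, and 60 mg/kg did for Cxcl12. Ccrl2 gave 1.3 and 6.1 in vehicle, 12.9 and 4.8 at 30 mg/kg, 1.5 and 4.8 at 60 and 21.0 and 5.3 at 90, at or near background. Ccl27a, the brightest member there, ranged between 1581.6 and 2566.4, and Cxcl10 and Ccl12 were below 20 units on every testis array.

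**Figure D5:**
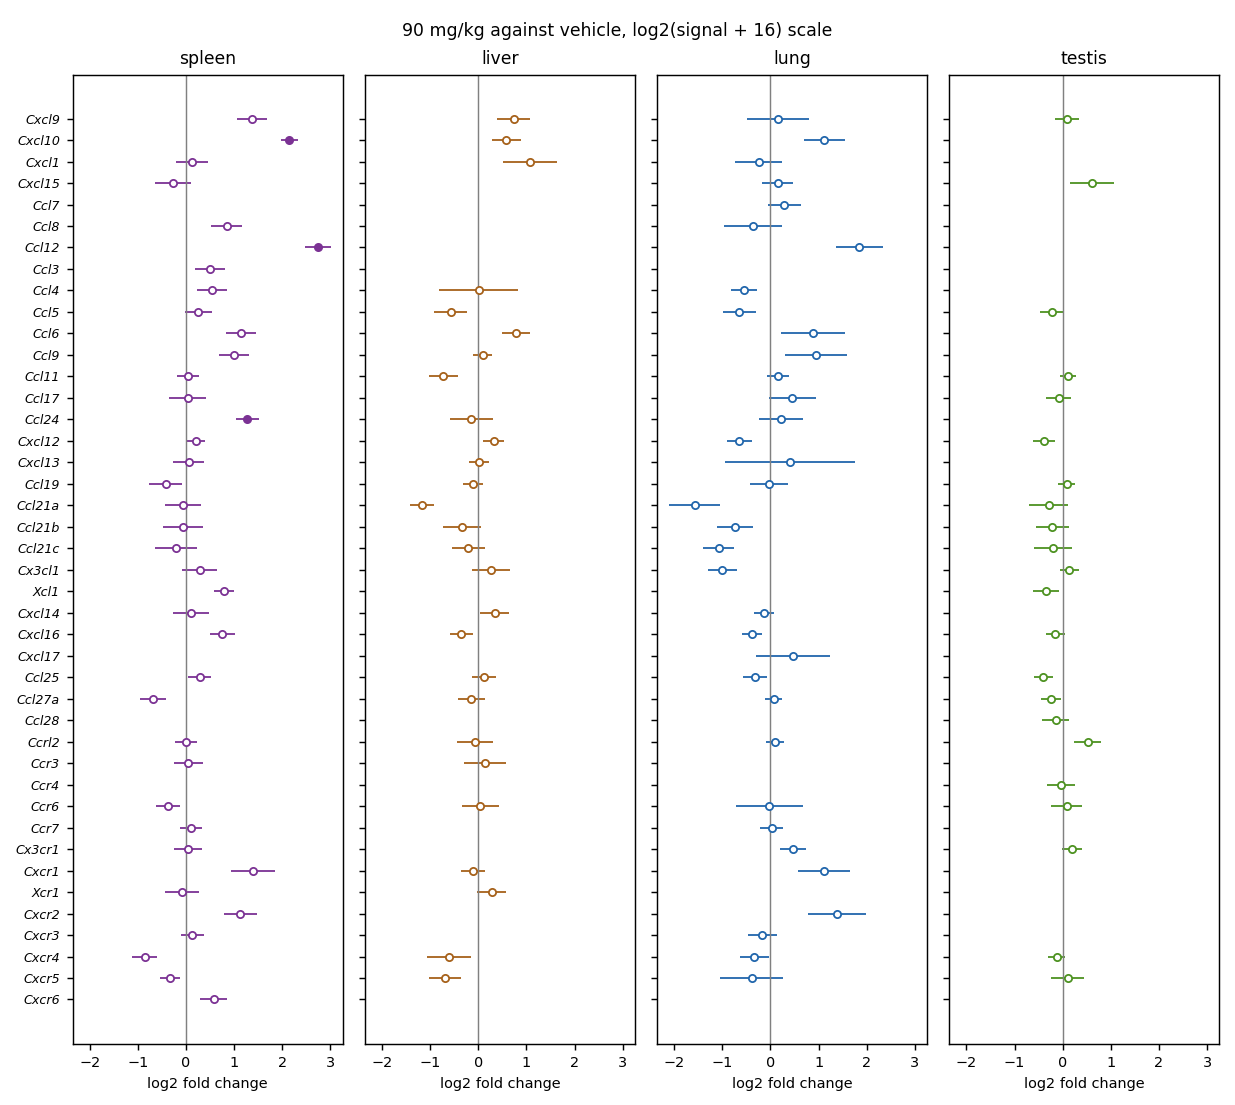
Log2 fold change at 90 mg/kg against vehicle (x axis, scale of log2(signal + 16)) for each member tested in an organ (rows, grouped by role), with SE bars; filled points are called. Filled points are Cxcl10, Ccl12 and Ccl24 in spleen, and liver, lung and testis hold none.

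The difference between organs was tested in 1 fit over all 32 arrays, setting the 90 mg/kg change of each organ against the mean change of the other 3. For the spleen 3 of 42 members passed, against 4.96% of all 13862 genes: Ccl12 at 2.06 ± 0.43 (adjusted p = 0.00852), Cxcl10 at 1.52 ± 0.36 (adjusted p = 0.018) and Cxcl16 at 1.05 ± 0.26 (adjusted p = 0.0249). Cxcl16, a transmembrane ligand of Cxcr6 on T and natural killer T cells, gave 191.2 and 255.6 units in vehicle spleen and 424.5 and 345.1 at 90 mg/kg, a log2 difference of 0.75, beside -0.36 in liver, -0.39 in lung and -0.15 in testis. Ccl12 differed by 2.74 in spleen, 1.84 in lung, 0.13 in liver and 0.07 in testis. Cxcl10 differed by 2.15 in spleen, 1.12 in lung, 0.58 in liver and 0.19 in testis. Ccl12 was detected on 0 of 8 liver arrays and 1 of 8 testis arrays, and Cxcl10 on 0 of 8 testis arrays. With the floor at 0 and the added 16, values there lie near 0 and do not measure a response. No member passed for liver (1.62% of genes), lung (0.0866%) or testis (0.00721%), where 3, 2 and 5 of the 42 had an unadjusted p under 0.05, against 15.8%, 9.08% and 9.65% of genes. Without array 2 of the spleen at 90 mg/kg no member passed, and without array 1 of that group or vehicle array 1 only 1 did.

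Genes that induce or follow the same chemokines were read in the spleen at 90 mg/kg beside the members. Over all genes tested there, limma called 4.27%. Of 13 interferon-stimulated genes tested 12 rose, with a list median of 2.50, led by Mx2 at 3.20 ± 0.17, Ifit3 at 4.12 ± 0.28 and Oas2 at 3.63 ± 0.24. Of 18 inducing cytokines and transcription factors 2 rose: Irf7, which amplifies interferon responses, by 3.79 ± 0.27, and Stat2, a subunit of the interferon-activated complex, by 2.06 ± 0.20. Irf7 gave 32.6 and 35.7 units in vehicle and 632.3 and 727.7 at 90 mg/kg. Ifng, the interferon that induces Cxcl9, gave 9.0 and 8.5 in vehicle and 16.0 and 22.5 at 90 mg/kg (0.50 ± 0.18, adjusted p = 0.126). Il1b, an inflammatory cytokine, was not called at 90 mg/kg, with 268.8 and 268.4 in vehicle and 762.4 and 536.0 at that dose. It was called at 60 mg/kg, higher by 1.72 ± 0.28 (limma adjusted p = 0.034). Tnf, from the same list, gave 42.5 and 50.3 in vehicle and 48.7 and 66.2 at 90 mg/kg, which overlapped.

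Macrophage markers moved with the inflammatory ligands in the spleen. Their 8 measured genes, all detected on each of the 8 arrays, summed to 5711.7 and 6827.3 in vehicle, 8355.2 and 7791.6 at 30 mg/kg, 11179.4 and 10265.5 at 60 and 12621.5 and 13511.8 at 90. Of the 8, 6 rose at 90 mg/kg, with a median of 1.26, led by Fcgr1 at 2.29 ± 0.29, C1qb at 1.29 ± 0.17 and C1qa at 1.60 ± 0.24, and their part in the rise of the ligands was not tested. Endothelial markers summed to 2499.5 and 3217.5 in vehicle and to 3821.1 and 4687.9 at 90 mg/kg, with limma calling 0 of 8 (4 at an unadjusted p under 0.05). Erythroid markers summed to 25467.0 and 14274.7 in vehicle, 3669.9 and 5623.8 at 60 mg/kg and 4270.2 and 10348.9 at 90, and 4 of 7 fell at 90 mg/kg. The part of these cells in the values of the ligands was not tested either. Over all genes tested in spleen at 90 mg/kg, 4.27% were called and 24.8% had an unadjusted p under 0.05. Limma called 0 of 10 T and natural killer cell markers (2 at an unadjusted p under 0.05) and 0 of 8 neutrophil markers (3 at an unadjusted p under 0.05). It called 0 of 31 receptor signalling genes, with 4 at an unadjusted p under 0.05 and a median of 0.18 beside 0.08 over all genes. Of 5 proliferation genes 5 fell, with a median of -2.44. Of 8 genes outside the members that bind chemokines or their receptors, such as the atypical receptor Ackr1, limma called 0, with 2 at an unadjusted p under 0.05. Ackr1 gave 556.7 and 146.4 in vehicle and 33.6 and 62.4 at 90 mg/kg.

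Members that neighbour each other did not all move together. By the order of protein-coding genes in GRCm38.p6, Ccl12 stands on chromosome 11 in the run Ccl2, Ccl7, Ccl11, Ccl12, Ccl8 and Ccl1. In this run Ccl1 and Ccl2 were not detected in spleen, Ccl7 was not tested there, Ccl11 differed by 0.05 ± 0.23 at 90 mg/kg and Ccl8 by 0.84 ± 0.32 (adjusted p = 0.151), beside the call of Ccl12. A second run on chromosome 11 holds Ccl5, Ccl9, Ccl6, Ccl3 and Ccl4, with spleen differences at 90 mg/kg of 0.25, 0.99, 1.14, 0.49 and 0.53 in that order. All 5 were positive and none was called.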

How the data were processed

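Total RNA of whole organs was extracted with TRIzol and labelled as biotinylated cRNA for Illumina arrays, per the labels' protocols. GenomeStudio produced the deposited intensities, per the submitters' processing notes, which name no version. The deposited intensity columns share one distribution to within 1.0 unit and hold 22.0% to 22.5% negative values, as background subtraction and quantile normalization by the authors would leave them. A second, non-normalized table has repeated column names, so its 64 per-sample columns were not used.

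Of 25697 probes, 23978 had 1 symbol and 1719 had none in the platform annotation, and 23962 matched the reference table. Of the members, 11 had more than 1 probe. Signals were floored at 0, raised by 16 and log2-transformed. Detection meant a signal above 1.645 times the noise SD of the array, taken from its values below 0. The 8 arrays of an organ entered 1 linear model with dose as a factor (limma 3.58.1, run under R 4.3.3, with eBayes). Vehicle organs were compared in a fit of 8 arrays, and organ differences in dose response in a fit of 32. Adjusted p-values are Benjamini-Hochberg values over all tested genes, and calls used 0.05. The testis signature was the median share over 68 probes bright in testis.

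The members and lists were chosen with earlier results of these data known. Values of every array are given for called members, up to 10 per organ by p, topped up to 4 by p at 90 mg/kg, for up to 4 called members per organ by fold in vehicle, and for up to 3 called genes per list. Other genes were named after their values were seen. On simulated data for 90 mg/kg, with 100 genes changed by log2 2, the fit recovered 82 in spleen, 66 in liver, 79 in lung and 95 in testis. With a log2 change of 1 it recovered 18, 23, 24 and 62. Alternatives changed the filter, the probe rule, the offset, a cyclic loess step, the arrays fitted, a replicate block, the testis share and each array in turn.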

Additional observations from a re-analysis of the deposited data

Results flagged for a closer look

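A difference between organs in the change at 90 mg/kg, tested in limma over all 32 arrays, marked 3 chemokines in the spleen. Ccl12 had a spleen change 2.06 ± 0.43 above the mean of the other 3 organs (adjusted p = 0.00852), with a range of 1.20 to 2.27 over the alternatives, and 21 of 22 alternatives kept the call. Both spleen arrays at 90 mg/kg lay above both vehicle arrays, as they did in lung. The Ccl12 probe was detected on 0 of 8 liver arrays and 1 of 8 testis arrays, so the mean of the other 3 includes organs with little or no measured signal. Cxcl10 had a value of 1.52 ± 0.36 (adjusted p = 0.018), ranging from 1.36 to 1.68, with the call kept in 18 of 22 alternatives. Cxcl16 had 1.05 ± 0.26 (adjusted p = 0.0249), ranging from 0.85 to 1.24, with the call kept in 19 of 22. For Cxcl16 the log2 change was positive in spleen and negative in liver, lung and testis, and none of these changes was called in its own organ.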

How the results depend on the processing

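Among the counts of called members, 365 recomputed values stayed within 1.5 times the reported count and 31 did not. Among the named genes, 602 kept their direction and side of the threshold, 45 lost the call, 7 gained one and 4 reversed. Most of the 602 had no call to lose, and most of the 365 belonged to counts that were 0 in the main fit. At 30 mg/kg in spleen the 1 call (Ccl27a) became 0 with the mean of the probes of a gene, without the detection filter and with the testis share subtracted. It also became 0 with testis-enriched genes left out and with a replicate block. At 60 mg/kg the 3 spleen calls became 6 in 1 fit over all 32 arrays, 1 without the detection filter and 7 with an offset of 50. At 90 mg/kg they became 6 in the fit over all arrays and 5 with the offset of 50. That offset also gave 1 call for the liver trend and 1 for the liver difference from other organs, in place of 0, and the fit over all arrays gave 1 call in lung at 90 mg/kg (Ccl12). Cyclic loess within the spleen gave 2 higher and 1 lower at 60 mg/kg in place of 3 higher. Leaving out each array in turn gave 0 to 1 calls in spleen at 30 mg/kg, 0 to 3 at 60, 1 to 3 at 90 and 1 to 4 for the trend. It gave 0 to 4 for the spleen difference from other organs and 0 to 1 for that of liver, which had 1 call without array 2 of the liver at 90 mg/kg or array 1 of the vehicle lung. It turned Ccl12 in lung at 60 mg/kg from 0.42 to between -0.22 and 1.06, and Ccrl2 in testis at 60 mg/kg to between -0.21 and 0.14. The cause of these shifts was not tested. Cxcl10 in spleen at 90 mg/kg was called in 16 of 16 alternatives and at 60 mg/kg in 15, Ccl12 in 15 and 10, Ccl24 at 90 mg/kg in 8, Xcl1 at 60 mg/kg in 5 and Ccl27a at 30 mg/kg in 6. In each organ 1 of 6 pairs of groups had same-numbered arrays deviating together at r over 0.1. The highest r was 0.40 in spleen, 0.15 in liver, 0.11 in lung and 0.16 in testis. Whether same-numbered arrays share an animal cannot be told from these correlations. Besides the count at 30 mg/kg, the paired fit with a replicate block lost the calls of Ccl24 at 90 mg/kg and Xcl1 at 60 mg/kg. Dim probes are limited by their signal over background.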

Other observations

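Neutrophil receptors stood out on array 2 of the lung at 90 mg/kg. Cxcr1 gave 172.9 units there and 22.1 to 49.3 on the other 7 lung arrays, and Cxcr2 gave 90.2 against 1.7 to 39.6. Markers of neutrophils were also highest on that array: S100a8, an abundant calcium-binding protein of the neutrophil cytosol, gave 8638.1 against 741.0 to 2621.6, and Retnlg gave 1705.5 against 40.0 to 291.5. The 9 neutrophil markers on the array summed to 15361.4 there and to 1633.2 to 7628.4 on the other lung arrays. Array 1 of the same dose gave 40.6 for Cxcr1 and 19.9 for Cxcr2, within the range of the other lungs. Neither receptor was called in lung.

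Cxcl15, bright in lung alone, was above background on some arrays of the other organs. These were 4 spleen arrays, at up to 15.7 units, 1 liver array and 3 testis arrays. Summed lung epithelial markers ranged from 42.3 to 598.7 in spleen. In testis Cxcl15 gave 33.8 units on array 1 at 30 mg/kg and 26.3 on array 2 at 60 mg/kg, and -10.4 to 10.5 on the other 6 testis arrays. Those same arrays had the highest summed lung epithelial markers of the testis, 1027.5 and 460.4, against 16.1 to 132.4 on the others, and surfactant gene Sftpc at 100.2 and 51.5. The part of such markers in the spleen and testis values of Cxcl15 was not tested.

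Interferon-stimulated genes were higher outside the spleen as well, without a call in limma. At 90 mg/kg their summed signal was 3813.5 and 3681.0 in liver against 1019.7 and 1059.5 in vehicle, and 6949.3 and 7818.2 in lung against 2327.1 and 2095.4. The median log2 difference of the 13 tested was 1.28 in liver and 1.95 in lung, beside -0.01 over all genes in each. All 13 were positive in both organs.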
